A study of Homo sapiens with 8 samples.

Results

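Antisense RNAs with a name of their own were followed in human FT293 cells that express GFP or a GFP-tagged RNA-binding protein. The members were all array probes, controls left out, whose gene name ends in -AS and 1 digit, apart from 1 imprinted locus that was left out. This gave 130 names and 168 probes, of 36337 gene names and 50599 probes in all, and 28 of the names had several probes. Each was set beside its sense gene, the gene of the same name without the ending. The array held probes for 125 sense genes, 218 probes in total, which made 129 pairs, since some sense genes have several antisense RNAs and only MLK7 had no probe.

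FT293 cells are HEK293 human embryonic kidney cells, to which the Flp-In T-REx system adds 1 transgene at a fixed site. Every line carried a transgene switched on by tetracycline, and its product was GFP alone, GFP-HuR, GFP-TIA1 or GFP-TIAR. RNA was taken on day 3 of tetracycline in each of the 4 lines, and 2 samples per line were hybridized to one-colour arrays, 8 in total. The lines are called GFP, HuR, TIA1 and TIAR here, and cells without tetracycline were not analysed here. The added proteins carry a GFP tag, and the cells also hold their own copies of the 3 genes, whose protein levels the arrays do not measure. Each line was made by its own integration, so that a difference between lines cannot be told apart from a difference between the cells in which the transgene was set.

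An antisense RNA is transcribed from the strand opposite to another gene, often from a start site beside or inside that gene. Some antisense RNAs act on the neighbouring gene or on its transcript, others share its promoter region and are made in the opposite direction, and many are long noncoding RNAs with no known function. TIA1 and TIAR are closely related proteins that bind U-rich stretches in RNA and act in splicing, mRNA decay and translation. HuR also binds U-rich stretches and is best known for stabilizing mRNAs.

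RefSeq lists 126 of the 130 antisense names, 34 of them under another symbol. Among the names used below, MFI2-AS1 is now MELTF-AS1, BSN-AS2 is BSN-DT, MRVI1-AS1 is IRAG1-AS1, ZNFX1-AS1 is ZFAS1 and C17orf76-AS1 is SNHG29. ZNRD1-AS1, TP73-AS1 and CRYM-AS1 are listed as the pseudogenes POLR1HASP, GFOD3P and ABCA15P. ATPAF1-AS1 and AATK-AS1 are listed as the protein-coding genes TEX38 and PVALEF. Some further names used below also have another symbol. In 127 of 129 pairs, the antisense and the sense probe lay on opposite strands of 1 chromosome of hg19, the exceptions being AKIRIN2-AS1 and HNRNPU-AS1. For 77 pairs RefSeq gave the strand of both genes, and all 77 were on opposite strands. The spans of the paired genes overlapped in 60 of them, and the 5' ends lay within 1000 bases of each other in 29.

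Every member is read by one or more 60-base probes that match 1 strand only. The probes below belong to the RNAs that the results turn on. They were taken from the array design, with positions on hg19, and capitals mark runs of at least 4 T, which read as U in the RNA.
RBM26-AS1, chr13:79998369-79998428, plus strand: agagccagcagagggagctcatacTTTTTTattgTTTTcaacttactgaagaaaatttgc
MAGI2-AS3, the upstream probe, chr7:79088212-79088271, plus strand: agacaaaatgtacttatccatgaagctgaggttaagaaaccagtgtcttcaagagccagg
MAGI2-AS3, the downstream probe, chr7:79100338-79100397, plus strand: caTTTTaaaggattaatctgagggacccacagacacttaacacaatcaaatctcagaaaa
SOX21-AS1, chr13:95366370-95366429, plus strand: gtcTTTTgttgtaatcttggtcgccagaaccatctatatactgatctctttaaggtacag
PCNA-AS1, chr20:5100555-5100614, plus strand: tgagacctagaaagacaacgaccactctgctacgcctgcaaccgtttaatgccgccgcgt
SPAG5-AS1, chr17:26944336-26944395, plus strand: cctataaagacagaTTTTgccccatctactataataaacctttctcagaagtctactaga
TTC28-AS1, the called probe, chr22:28398539-28398598, plus strand: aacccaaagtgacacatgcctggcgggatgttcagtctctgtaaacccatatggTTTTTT
TTC28-AS1, a probe not called, chr22:28320884-28320943, plus strand: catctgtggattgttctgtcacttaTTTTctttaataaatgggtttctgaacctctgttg
BSN-AS2, chr3:49586743-49586802, minus strand: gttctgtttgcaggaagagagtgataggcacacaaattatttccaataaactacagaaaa
MAST4-AS1, chr5:66297462-66297521, minus strand: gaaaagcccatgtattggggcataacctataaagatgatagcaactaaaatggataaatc
CRYM-AS1, chr16:21329853-21329912, plus strand: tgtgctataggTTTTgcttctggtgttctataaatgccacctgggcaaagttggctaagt
The probes of MAGI2-AS3 shown here share no run of 25 or more bases with each other, nor do those of TTC28-AS1. A run of T occurred in 57 of the 168 antisense probes (33.9%) and in 31.4% of all probes. Among called probes (defined below) it occurred in 4 of 11 higher and 4 of 11 lower probes in TIA1 relative to HuR, and in 3 of 10 higher and 4 of 10 lower in TIAR relative to HuR. The letters of a probe say nothing of the rest of the transcript.

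In the pairs RBM26, SOX21 and BSN, the antisense and the sense gene start a short distance apart and run away from each other, and the stretch between their start sites is shown because the pair's results below differ. It was read from RefSeq's promoter table on GRCh38.p14, and capitals mark TATAAA, the TATA box letters.
RBM26-AS1 to RBM26, chr13:79406256-79406308, on the strand of RBM26-AS1: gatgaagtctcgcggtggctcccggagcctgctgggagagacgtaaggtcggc
SOX21-AS1 to SOX21, chr13:94712546-94712715, on the strand of SOX21-AS1: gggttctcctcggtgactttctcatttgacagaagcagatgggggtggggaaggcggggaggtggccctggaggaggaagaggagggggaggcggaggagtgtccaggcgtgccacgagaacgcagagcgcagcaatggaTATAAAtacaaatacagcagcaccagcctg
BSN-AS2 to BSN, chr3:49554367-49554476, on the strand of BSN-AS2: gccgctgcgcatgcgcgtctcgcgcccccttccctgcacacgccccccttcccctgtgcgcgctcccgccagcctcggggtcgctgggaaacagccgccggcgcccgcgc
The start sites were 54 bases apart for RBM26, 171 for SOX21 and 111 for BSN. TATAAA, searched on both strands, occurred in the SOX21 stretch alone, ending 25 bases before the start of SOX21-AS1, whereas 11.5% of the 35116 promoters of the table (300 bases each) held it. The BSN stretch held 17 CG dinucleotides in 110 bases with 79.1% G and C, the RBM26 stretch 5 in 53 bases with 66% and the SOX21 stretch 7 in 170 bases with 59.4%. In the full 300 bases around the antisense start, the counts of CG were 47, 28 and 18, against a median of 14 over the table.

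All values are log2 signals relative to the 75th percentile of the array, and a positive difference is higher in the line named first. Testing asked for 1 line, of the pair compared, with both arrays marked well above background by the scanner software. Lines were compared with limma over all tested probes of the array, and "called" means 2-fold or more apart with an adjusted p below 0.05 (Benjamini-Hochberg). The 2 arrays of a line come from separate biological replicates. A bulk level also cannot tell fewer cells that make an RNA from less of it in each cell.

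Antisense RNAs were detected about as often as other probes and less often than their sense genes. Between 47.6% and 57.7% of antisense probes were well above background on 7 arrays, against 68.8% to 72.5% of sense probes and 53.2% to 58.4% of all probes. The array GFP 1 stood apart, with 86.3% of antisense, 89.9% of sense and 85.9% of all probes well above background, and its mean local background was 90 units against 37.4 to 43.5 on the others. On GFP 1 alone were 37 antisense probes well above background, by a median of 3.92 over GFP 2 on the log2 scale, and 92 of the 168 antisense probes were highest on it. These 37 are not taken as expressed. On all 8 arrays 71 antisense probes were well above background, and 19 on none. In at least 1 comparison, 92 probes of 70 names were tested.

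**Figure D1:**
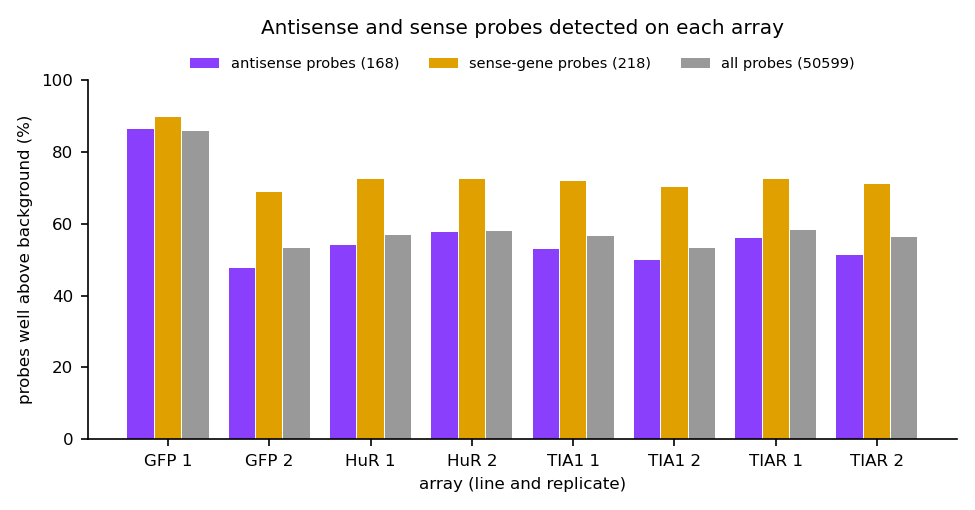
Share of probes well above background (y axis, %) on each of the 8 arrays (x axis), for the 168 antisense probes, the 218 sense probes and all 50599 probes. GFP 1 lies above 85% in all 3 groups, and on the other 7 arrays the antisense bars stay between 47.6% and 57.7%, below the sense bars.

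The 2 arrays of a line agreed closely outside GFP. Over the 71 antisense probes well above background throughout, the median absolute difference between the 2 arrays was 0.39 in GFP, 0.09 in HuR, 0.14 in TIA1 and 0.12 in TIAR, and 12, 0, 1 and 0 probes lay at least 2-fold apart. The kidney line's markers PAX2, NEFL, CDH2, KRT18 and VIM had a probe well above background on all arrays and NEFM on 7, and of markers of other cell types, HBB and PECAM1 probes passed on 1 array at most, CD3E on 2 and ALB on 6, while 1 of 5 PTPRC probes passed on all 8. A TIAL1 probe, the gene of TIAR, read 4.87 and 4.98 in TIAR and between 1.63 and 2.52 elsewhere. Probes of TIA1 and of ELAVL1, the gene of HuR, were not highest in their own lines, and where they lie relative to the transgenes is not given in the sources used here. Both TIA1 probes read lower on the 4 arrays of TIA1 and TIAR than on the other 4.

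Against HuR, antisense RNAs were called in both directions, in a balance that depended on the scaling. In TIA1, 11 of 90 tested antisense probes were called higher and 11 lower, which is 24.4%, where 13.4% of all 28729 tested probes were called (8.49% higher and 4.9% lower) and 21 of 158 sense probes (13.3%). In TIAR, 10 of 91 were called higher and 10 lower, 22%, where 10.1% of all 29083 tested probes were called (7.05% higher and 3.01% lower) and 14 of 157 sense probes (8.92%). With quantile normalization the calls were 7 higher and 12 lower in TIA1, and 5 higher and 12 lower in TIAR. Both comparisons use the same 2 HuR arrays. The median difference of antisense probes was 0.00 in TIA1 and -0.08 in TIAR, against 0.08 and 0.05 over all probes, and the median size regardless of direction was 0.48 and 0.58 against 0.39 and 0.34. With normexp background correction the shares called were 12.2% against 7.67% of all probes in TIA1 and 7.69% against 5.49% in TIAR. Leaving out either HuR array leaves 1 in that line, and counts of such fits are not given. In TIAR, most or all antisense calls were then lost, and the share called lay below that of all probes. In TIA1, most antisense calls remained, at a share above that of all probes.

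**Figure D2:**
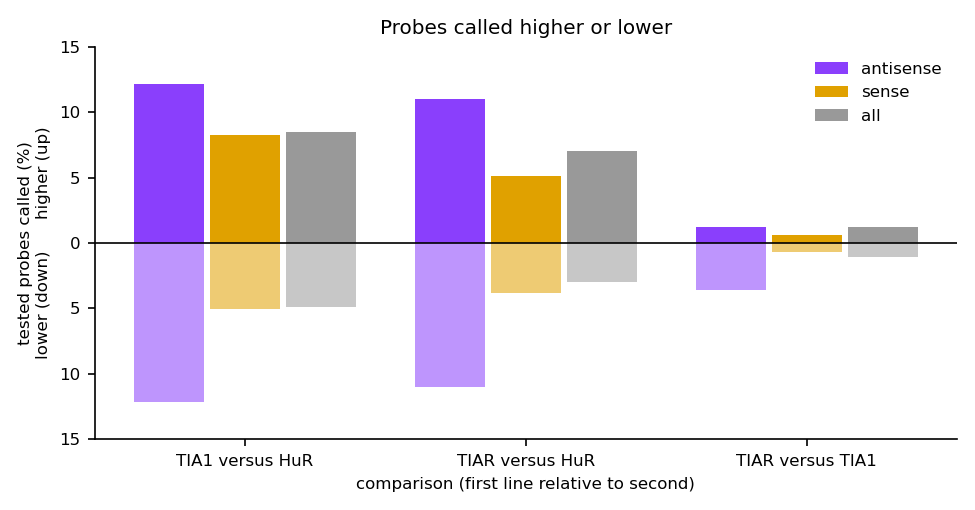
Tested probes called higher (bars upward) or lower (bars downward), in % of those tested, for antisense, sense and all probes in 3 comparisons of lines. Antisense bars reach 12.2% and 12.2% in TIA1 relative to HuR and 11% and 11% in TIAR relative to HuR, and the lower bars are the ones farthest beyond those of all probes (4.9% and 3.01%).

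PCNA-AS1 and its sense gene were both higher in TIA1 and TIAR than in HuR. PCNA is the sliding clamp of DNA replication, and PCNA-AS1 lies across it on the other strand. PCNA-AS1 read -3.66 and -3.64 in HuR, -2.43 and -2.84 in TIA1, -2.55 and -2.60 in TIAR, and -2.11 and -3.09 in GFP. All 4 TIA1 and TIAR arrays lay above both HuR arrays, and the GFP arrays spread around them. Relative to GFP, PCNA-AS1 differed by -0.03 in TIA1, 0.02 in TIAR and -1.05 in HuR, none of them called. It was 2.02-fold higher in TIA1 than in HuR (log2 1.02, SE 0.17, adjusted p = 0.014, limma) and 2.11-fold higher in TIAR (1.07, SE 0.09, adjusted p = 0.0063). Of the 3 PCNA probes, 1 was called in both comparisons, at 1.12 and 1.04, and read 3.88 and 3.99 in HuR, 5.18 and 4.93 in TIA1 and 5.09 and 4.86 in TIAR. The other 2 had differences of 0.97 and 0.94 in TIA1 and 0.99 and 0.62 in TIAR, on the same side and short of the fold change asked. The tested probes within 5 Mb of PCNA-AS1 had median differences of 0.40 and 0.47, and with these subtracted PCNA-AS1 differed less than 2-fold.

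SOX21-AS1 and SOX21 were both called lower in TIAR than in HuR, and in TIA1 SOX21 alone was called. SOX21 is a transcription factor of the SOX family, known from neural development. SOX21-AS1 read -2.12 and -2.38 in GFP, -3.04 and -2.97 in HuR, -3.83 and -3.80 in TIA1 and -4.13 and -4.51 in TIAR. The 4 lines did not overlap. In TIAR it was 2.48-fold lower than in HuR (log2 -1.31, SE 0.16, adjusted p = 0.011, limma), and in TIA1 the difference was -0.80 (SE 0.09, adjusted p = 0.0064), below 2-fold. SOX21 itself read -3.01 and -3.04 in HuR, -4.70 and -4.21 in TIA1 and -4.72 and -4.24 in TIAR. It was called lower in both, at -1.43 and -1.46, with the TIA1 and TIAR arrays side by side. The tested probes within 5 Mb of SOX21-AS1 had a median of -0.57 between TIAR and HuR, and with this subtracted SOX21-AS1 differed less than 2-fold.

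Most antisense RNAs called higher than in HuR were so in both TIA1 and TIAR, while their sense genes were not called. TTC28-AS1 had the largest difference among those called in TIA1, and TTC28 encodes a tetratricopeptide repeat protein. Its called probe read -2.20 and -2.14 in HuR, -0.38 and -0.37 in TIA1, -0.77 and -0.84 in TIAR and -1.03 and -1.41 in GFP, so that no 2 lines overlapped. It was 3.47-fold higher in TIA1 (log2 1.79, SE 0.09, adjusted p = 0.0021, limma) and 2.57-fold higher in TIAR (adjusted p = 0.0051). The other 3 TTC28-AS1 probes differed by -0.05, 0.04 and 0.33 in TIA1 and by 0.01, -0.21 and 0.17 in TIAR, so the probes of this name disagree. The TTC28 probe differed by -0.22 and -0.14.

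SPAG5-AS1 showed nearly the same level in TIA1 and TIAR. Its partner SPAG5 encodes astrin, a protein of the mitotic spindle. SPAG5-AS1 read -5.24 and -5.32 in HuR, -3.60 and -3.64 in TIA1, -3.61 and -3.65 in TIAR, and -3.96 and -4.73 in GFP. It was 3.16-fold higher in TIA1 (log2 1.66, SE 0.09, adjusted p = 0.0024, limma) and 3.14-fold higher in TIAR (1.65, SE 0.10, adjusted p = 0.0041). SPAG5 differed by 0.72 and 0.65, in the same direction and not called.

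RFPL3-AS1 and ZNF503-AS2 followed the same course. RFPL3-AS1 read -2.02 and -1.89 in HuR, -0.36 and -0.39 in TIA1 and -0.76 and -0.83 in TIAR, which was 2.98-fold higher in TIA1 (adjusted p = 0.0026, limma) and 2.24-fold higher in TIAR (adjusted p = 0.0068), and the probe of RFPL3 was not tested. ZNF503 encodes a zinc finger protein. ZNF503-AS2 read 0.30 and 0.15 in HuR, 1.38 and 1.61 in TIA1 and 1.23 and 1.47 in TIAR, 2.42-fold and 2.18-fold higher (adjusted p = 0.005 and 0.01). ZNF503 differed by 0.69 and 0.41. In both antisense RNAs the TIA1 and TIAR arrays lay above HuR without overlap.

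MFI2-AS1 was called in TIA1. MFI2 encodes melanotransferrin, an iron-binding surface protein. MFI2-AS1 read -0.40 and -0.33 in HuR, 1.00 and 1.41 in TIA1, 0.51 and 0.46 in TIAR and -0.58 and -0.98 in GFP. The difference from HuR was 1.57 in TIA1 (SE 0.17, adjusted p = 0.0055, limma) and 0.84 in TIAR (adjusted p = 0.0097), and MFI2 differed by 0.72 and 0.43. TIAR lay between HuR and TIA1, and the difference of -0.72 between TIAR and TIA1 was not called. PCBP1-AS1, beside an RNA-binding protein of poly(C), differed by 1.21 and 1.05 and was called in both, with PCBP1 at 0.01 and 0.08. MORC2-AS1 was called in TIA1 at 1.06, with MORC2 at -0.67, and GCFC1-AS1 and MCF2L-AS1 were called in TIAR at 1.07 and 1.00.

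WWTR1-AS1 was called in TIAR. WWTR1 encodes TAZ, an effector of the Hippo pathway. WWTR1-AS1 read -5.60 and -5.42 in HuR, -5.81 and -4.81 in TIA1 and -4.31 and -4.31 in TIAR. It was 2.29-fold higher in TIAR (log2 1.19, SE 0.11, adjusted p = 0.007), while the TIA1 arrays lay on both sides of HuR. One WWTR1 probe was called in both comparisons, at 2.84 and 2.90, whereas the brighter one had differences of -0.37 and 0.70 and was called in neither.

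**Figure D3:**
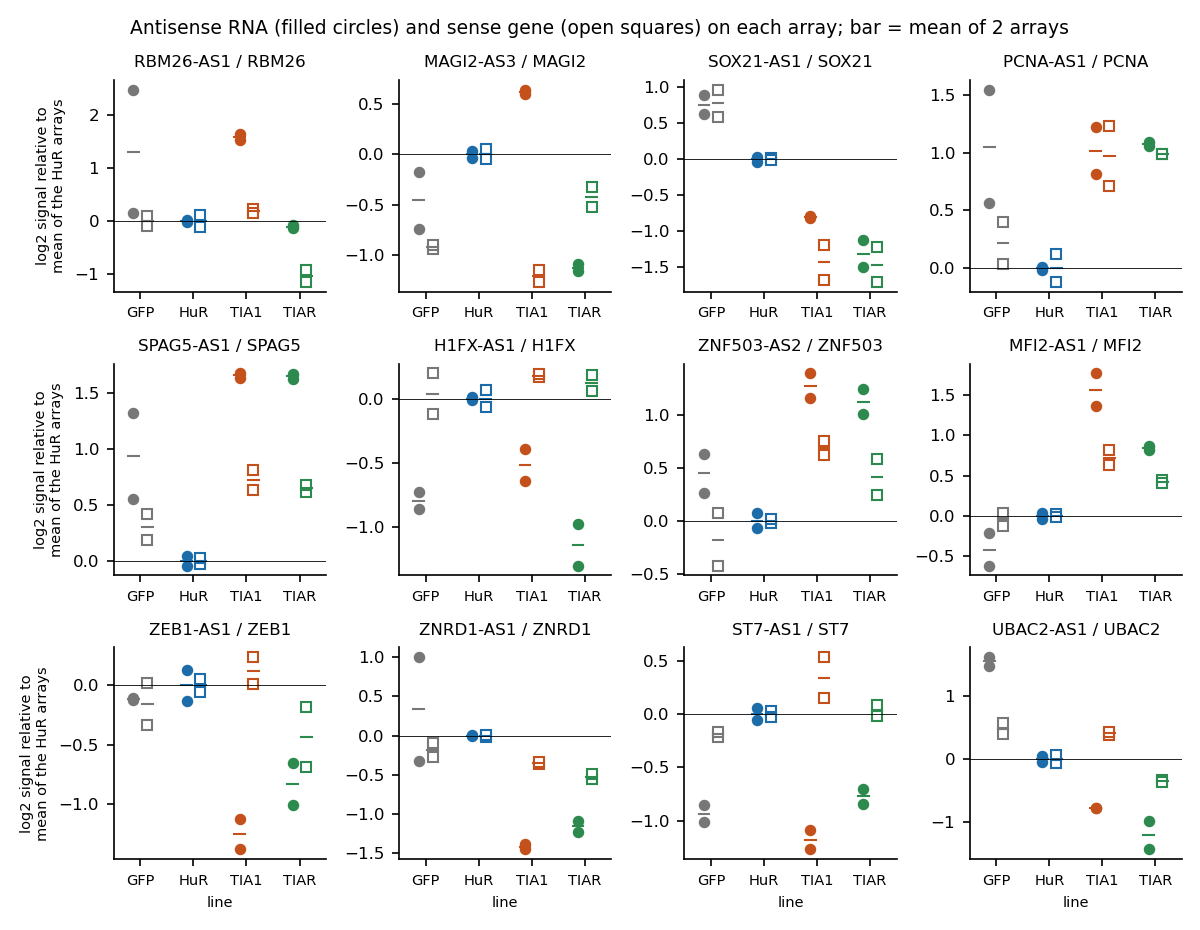
Log2 signal relative to the mean of the 2 HuR arrays (y axis, own scale in each panel) in the 4 lines (x axis), for 12 antisense RNAs (filled circles, 1 per array) and their sense genes (open squares), with bars at the mean of 2 arrays. RBM26-AS1 is raised in TIA1 alone among the 3 lines with an added RNA-binding protein, while RBM26 is lowered in TIAR, and for ZEB1-AS1, ZNRD1-AS1 and ST7-AS1 the antisense points in TIA1 lie below the sense points.

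Among antisense RNAs called lower than in HuR, MAST4-AS1 and CRYM-AS1 were called in both lines. MAST4 encodes a serine/threonine kinase and CRYM a thyroid hormone-binding crystallin. MAST4-AS1 read -2.80 and -2.83 in HuR, -5.82 and -4.72 in TIA1, -4.18 and -5.21 in TIAR and -3.13 and -3.80 in GFP. It was 5.48-fold lower in TIA1 (log2 -2.45, SE 0.39, adjusted p = 0.013, limma) and 3.67-fold lower in TIAR (-1.88, SE 0.37, adjusted p = 0.028), and 1 of the 2 arrays was well above background in each of these lines. CRYM-AS1 read -4.76 and -4.82 in HuR, -7.44 and -7.10 in TIA1 and -6.93 and -6.10 in TIAR, where it was not well above background. It was at least 1.63-fold lower in TIA1 (adjusted p = 0.0025) and at least 1.93-fold lower in TIAR (adjusted p = 0.022). For such a bound, the dim line enters with the lowest signal that its arrays marked well above background, or with the probe's signal where that was higher. The sense genes differed little, MAST4 by 0.11 and 0.34 and CRYM by 0.35 and 0.01.

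ZNRD1-AS1 was lower on both of its probes. ZNRD1 encodes a subunit of RNA polymerase I. The brighter ZNRD1-AS1 probe read -1.71 and -1.71 in HuR, -3.09 and -3.16 in TIA1, -2.93 and -2.80 in TIAR and -0.71 and -2.04 in GFP. It was 2.67-fold lower in TIA1 (log2 -1.42, SE 0.09, adjusted p = 0.0027, limma) and 2.23-fold lower in TIAR (adjusted p = 0.0066). The second probe differed by -1.43 in TIA1, called, and by -0.99 in TIAR, not called. ZNRD1 differed by -0.34 and -0.52.

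ZEB1-AS1 and ST7-AS1 were called lower in TIA1 and not in TIAR. ZEB1 is a repressor that drives epithelial to mesenchymal transition, and its antisense RNA starts beside it in the opposite direction. The brighter ZEB1-AS1 probe read -1.53 and -1.27 in HuR, -2.53 and -2.79 in TIA1, -2.41 and -2.06 in TIAR and -1.51 and -1.53 in GFP. Both ZEB1-AS1 probes differed by -1.26 in TIA1, and by -0.50 and -0.83 in TIAR, while ZEB1 differed by 0.12 and -0.44. ST7-AS1, antisense to a gene named for suppression of tumorigenicity, read 0.04 and 0.14 in HuR, -1.0 and -1.18 in TIA1, -0.76 and -0.61 in TIAR and -0.93 and -0.76 in GFP. It was 2.27-fold lower in TIA1 (log2 -1.18, SE 0.11, adjusted p = 0.0046, limma) and differed by -0.77 in TIAR, and HuR stood above the other 3 lines. ST7 differed by 0.34 and 0.03. The difference between TIAR and TIA1 was not called for either antisense RNA, at 0.42 for ZEB1-AS1 and 0.41 for ST7-AS1.

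NPPA-AS1 and MRVI1-AS1 were near background in the lines where they were low. NPPA encodes atrial natriuretic peptide. NPPA-AS1 read -4.64 and -4.58 in HuR, -6.13 and -7.22 in TIA1, -4.27 and -4.91 in TIAR and -1.38 and -4.61 in GFP, and was at least 1.84-fold lower in TIA1 than in HuR (adjusted p = 0.019, limma), with no call in TIAR (0.02). MRVI1-AS1 read -5.81 and -5.84 in HuR, -7.12 and -7.38 in TIA1 and -8.18 and -7.47 in TIAR, and although it was called in both no fold is given, since against the detection limit of TIA1 and TIAR the bound comes to under 1. LPP-AS2 was at least 1.86-fold lower in TIA1, and IDI2-AS1 was called lower there at -1.03. In all, 5 of the 22 calls in TIA1 and 3 of the 20 in TIAR had 1 of the lines below the detection mark on both arrays.

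In TIAR, UBAC2-AS1 and H1FX-AS1 were called lower than in HuR, and their sense genes were not. UBAC2 encodes a membrane protein with a ubiquitin-binding domain, and H1FX a linker histone. UBAC2-AS1 read -1.05 and -0.91 in GFP, -2.59 and -2.49 in HuR, -3.32 and -3.32 in TIA1 and -3.98 and -3.53 in TIAR. The lines did not overlap, and the difference of TIAR from HuR was -1.22 (SE 0.18, adjusted p = 0.016, limma), with UBAC2 at -0.35. H1FX-AS1 read -1.81 and -1.79 in HuR and -3.10 and -2.77 in TIAR, a difference of -1.14 (adjusted p = 0.012), with H1FX at 0.12. In TIA1, H1FX-AS1 differed from HuR by -0.52. Relative to GFP it differed by 0.79 in HuR, 0.28 in TIA1 and -0.34 in TIAR, none of them called. Its HuR arrays lay above and its TIAR arrays below all others. A dim probe of TRAF3IP2-AS1 was called lower at -1.17, but the brightest probe of that RNA differed by 0.49.

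Between TIAR and TIA1, 4 of 84 tested antisense probes were called, 4.76%, where 2.33% of all 28045 tested probes were called (1.23% higher and 1.1% lower), and 2 of 154 sense probes. The 4 belonged to MAGI2-AS3, RBM26-AS1 and BSN-AS2. The median difference was 0.00 against -0.02 over all probes. Without any 1 of these 4 arrays, the antisense calls were lost, as were most or all calls over the whole array. All 3 are RNAs that start within 1000 bases of their sense gene, a group of 19 measured pairs. The 18 measured pairs with starts farther apart held 0 calls, a count with no test. The rest of the 60 measured pairs had no start position for both genes and are in neither group.

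RBM26-AS1 was high in TIA1 and its sense gene was low in TIAR. RBM26 is an RNA-binding protein with an RRM domain. RBM26-AS1 read -3.27 and -3.30 in HuR, -1.64 and -1.76 in TIA1, -3.41 and -3.36 in TIAR and -0.80 and -3.14 in GFP. TIA1 lay above HuR and TIAR by more than any spread within these lines. It was 3.01-fold higher in TIA1 than in HuR (log2 1.59, SE 0.10, adjusted p = 0.0026, limma) and 3.23-fold lower in TIAR than in TIA1 (-1.69, SE 0.12, adjusted p = 0.019), with -0.10 between TIAR and HuR (adjusted p = 0.45). RBM26 read 0.43 and 0.66 in HuR, 0.77 and 0.69 in TIA1 and -0.38 and -0.60 in TIAR. Its differences were 0.19 between TIA1 and HuR, -1.04 between TIAR and HuR and -1.23 between TIAR and TIA1, the latter 2 called. Both genes of the pair were thus called lower in TIAR than in TIA1, but the antisense RNA was called against HuR in TIA1 and the sense gene in TIAR.

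MAGI2-AS3 was lowest in TIAR and highest in TIA1. MAGI2 encodes a scaffold protein of cell junctions and synapses. The downstream probe of MAGI2-AS3 read 0.80 and 0.87 in HuR, 1.43 and 1.47 in TIA1, -0.25 and -0.33 in TIAR and 0.09 and 0.66 in GFP. The upstream probe read 0.14 and 0.29 in HuR, 1.07 and 1.20 in TIA1, -0.59 and -0.55 in TIAR and -0.14 and -0.11 in GFP. On both probes TIA1 stood above and TIAR below all other arrays. TIAR was lower than TIA1 by 1.74 (SE 0.11) and 1.70 (SE 0.12) on the log2 scale, both with an adjusted p = 0.019 from limma. Against HuR, the downstream probe differed by 0.62 in TIA1 and by -1.12 in TIAR (2.18-fold lower, adjusted p = 0.0064), and the upstream probe by 0.92 and -0.78. Another 2 MAGI2-AS3 probes, 1 of which shares 29 bases with the downstream probe, differed between TIAR and TIA1 by -2.15 (adjusted p = 0.088) and -2.64 (adjusted p = 0.081).

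MAGI2 did not follow its antisense RNA. The sense probe read -1.63 and -1.73 in HuR, -2.94 and -2.82 in TIA1, -2.0 and -2.20 in TIAR and -2.61 and -2.58 in GFP. It was called lower in TIA1 than in HuR (log2 -1.20, SE 0.10, adjusted p = 0.0039, limma), with -0.42 in TIAR and 0.78 between TIAR and TIA1, neither called. In TIA1 the antisense RNA was thus at its highest and the sense gene at its lowest over the 4 lines.

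BSN-AS2 was called higher in TIAR than in TIA1. BSN encodes bassoon, a scaffold of presynaptic terminals. BSN-AS2 read -6.19 and -6.10 in TIA1, where it was not well above background, -4.95 and -4.56 in TIAR, -5.53 and -6.84 in HuR and -2.90 and -5.78 in GFP. It was at least 1.66-fold higher in TIAR (adjusted p = 0.038, limma). BSN differed by -0.36 between TIAR and TIA1.

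Both members of a pair were called in few cases, and with few sense genes called few such cases could occur. With 1 probe per gene, both members were tested in 64 pairs between TIA1 and HuR, where 17 antisense RNAs and 6 sense genes were called and 0 pairs had both. Between TIAR and HuR, 65 pairs held 16 and 6 calls with SOX21 the pair called on both sides, and between TIAR and TIA1, 60 pairs held 3 and 1 with RBM26 called on both. Counting any probe, PCNA was added in both comparisons with HuR and WWTR1 in TIAR. In each of these pairs the direction was shared, and no pair was called in opposite directions. The members of a pair had the same sign in 34 of 64, 36 of 65 and 30 of 60 pairs (53.1%, 55.4% and 50%). Pearson's r across pairs was 0.09, 0.24 and 0.18, given as a description of pairs measured on the same arrays. Where the starts lay within 1000 bases, 15 of 21 pairs had the same sign between TIAR and HuR, with an r of 0.44. Where they lay farther apart it was 9 of 20, with an r of 0.12. Between TIA1 and HuR, r was 0.12 in both groups. Between TIAR and TIA1 it was 0.12 for near starts and 0.42 for starts farther apart. Pairs without a start position for both genes are in neither group, and the difference between the groups was not tested.

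**Figure D4:**
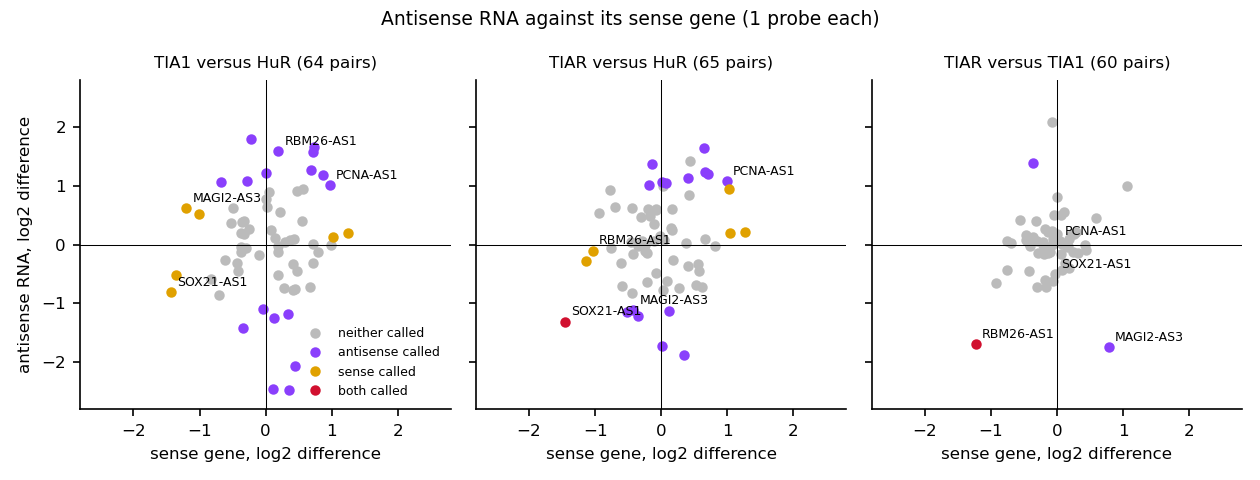
Log2 difference of the antisense RNA (y axis) against that of its sense gene (x axis), 1 probe per gene and 1 point per pair, in 3 comparisons with 64, 65 and 60 pairs, coloured by which member was called. Most called points lie near 1 of the axes, and SOX21-AS1 (TIAR relative to HuR) and RBM26-AS1 (TIAR relative to TIA1) are the pairs with both members called.

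Several sense genes were called while their antisense RNA was not. FLVCR1, a heme exporter, was lower in TIA1 than in HuR by 1.35 on the log2 scale (adjusted p = 0.0027, limma), with FLVCR1-AS1 at -0.52. WDFY3, an adaptor of selective autophagy, was called higher in TIA1 and TIAR, at 1.25 and 1.04, with WDFY3-AS2 at 0.20 and 0.19. AATK, a kinase, was called higher in both at 1.03, with AATK-AS1 at 0.13 and 0.94. ATPAF1, an assembly factor of mitochondrial ATP synthase, was called lower in TIA1 at -1.01, with ATPAF1-AS1 at 0.52. ZNFX1, a helicase-like zinc finger protein, was called higher in TIAR at 1.27 while ZNFX1-AS1, a host of small nucleolar RNAs, read between 3.88 and 4.55 on all arrays and differed by 0.21. HOXA11, a homeobox gene, was called lower in TIAR at -1.13, with HOXA11-AS1 at -0.28. LSAMP was called higher in TIAR than in TIA1 at 1.39 (adjusted p = 0.024), and its antisense probe LSAMP-AS3 was not tested.

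Several of the brighter antisense RNAs were not called. EPB41L4A-AS1 read between 3.96 and 4.60 on the 8 arrays and differed by -0.02 in TIA1 and 0.06 in TIAR from HuR. C17orf76-AS1, another host of small nucleolar RNAs, differed by 0.40 and 0.09 on its brightest probe and HLA-F-AS1 by 0.64 (adjusted p = 0.012, limma) and 0.60, below 2-fold. HOXA11-AS1 differed by -0.31 and -0.28 on its brighter probe. Among 19 antisense RNAs that have been described often elsewhere, a list drawn up from general knowledge, 22 probes were tested. Against HuR, 2 were called higher and 4 lower in TIA1, and 2 higher and 4 lower in TIAR, with medians of -0.03 and -0.50, where 13.4% and 10.1% of all tested probes were called, and between TIAR and TIA1 both calls were lower (MAGI2-AS3). Of the list, DLX6-AS1, OIP5-AS1, TP73-AS1 and MCM3AP-AS1 were measured without a call, TP73-AS1 at -0.13 and -0.72 and MCM3AP-AS1 at -0.75 and -0.63 in TIA1 and TIAR relative to HuR.

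Sorted by what the sense gene does, the classes held few tested probes and few calls each, and the counts are read against 8.49% higher and 4.9% lower of all tested probes in TIA1 and 7.05% and 3.01% in TIAR. Against HuR, antisense RNAs of developmental transcription factors (7 names, 8 probes tested) had 1 probe higher and 2 lower in TIA1 and 1 higher and 1 lower in TIAR. Those of genes in RNA processing and translation (7 names, 7 probes) had 2 higher in TIA1 and 1 in TIAR, with 0 lower in either. Those of cytoskeleton and adhesion genes (11 names, 7 probes) had 1 higher in TIA1, MFI2-AS1, and 2 lower in TIAR, both MAGI2-AS3. For signalling genes and channels (8 names, 6 probes) the calls were 2 lower in TIA1 and 1 lower in TIAR, and for genes of the cell cycle and chromatin (4 names, 5 probes) PCNA-AS1 was the call, higher in both. Antisense RNAs of zinc finger genes (5 names, 2 probes) had ZNF503-AS2 higher in both, and of metabolic genes (3 names, 1 probe) IDI2-AS1 lower in TIA1. The remaining 85 names held 5 higher and 6 lower calls in TIA1 and 6 and 6 in TIAR. The sorting is incomplete, since these names include the called SPAG5-AS1, of a spindle protein, and H1FX-AS1, of a linker histone. It is also loose, since MFI2, an iron-binding surface protein, and DNAJC27 were placed with the cytoskeleton and adhesion genes. NAV2 was placed with RNA processing and translation, and FMR1 with the remaining names.

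Over all 4 lines, antisense RNAs stood lowest in TIAR more often than in the other lines. Of the 71 probes well above background throughout, both TIAR arrays lay below the other 6 arrays for 14 (19.7%), against 6.08% of the 24938 such probes in all and 11 of 140 sense probes (7.86%). These 14 were 3 probes of MAGI2-AS3, 2 of DNAJC3-AS1 and 1 each of UBAC2-AS1, MYLK-AS1, RBM26-AS1, OIP5-AS1, FBXL19-AS1, SOX21-AS1, TP73-AS1, H1FX-AS1 and TRAF3IP2-AS1. The counts and background for the other patterns were 6 above in TIAR (8.45% against 6.67%), 9 above (12.7% against 13.7%) and 9 below (12.7% against 9.61%) in TIA1, 7 above (9.86% against 13.2%) and 10 below (14.1% against 16%) in HuR, and 11 above (15.5% against 8.71%) and 11 below (15.5% against 12%) in GFP. These are counts of arrays that do not overlap, with no test.

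Some of these RNAs lie in stretches of the genome where many probes shifted together. The median difference of the other tested probes within 5 Mb of RBM26-AS1 on chromosome 13 was -1.15 between TIAR and TIA1 (24 probes), against -1.69 for RBM26-AS1, and the median over chromosome 13 was -0.31. Between TIAR and HuR it was -0.88 (27 probes), where RBM26-AS1 differed by -0.10 and RBM26 by -1.04. On the same chromosome, the neighbours of SOX21-AS1 had a median of -0.57 between TIAR and HuR (47 probes), those of UBAC2-AS1 -0.62 (64 probes) and those of DNAJC3-AS1 -0.57 (55 probes). RBM26-AS1, SOX21-AS1, UBAC2-AS1 and DNAJC3-AS1, which account for 5 of the 14 probes lowest in TIAR, thus lie among probes that were lower in TIAR. Around MAGI2-AS3 on chromosome 7 the neighbours' median was -0.52 between TIAR and TIA1 (84 probes) and 0.51 between TIA1 and HuR (87 probes). Near PCNA-AS1 on chromosome 20 the medians were 0.40 in TIA1 (135 probes) and 0.47 in TIAR (136 probes) relative to HuR, and over the chromosome 0.49 and 0.48. Relative to GFP, the median over chromosome 20 was 0.02 in TIA1, -0.04 in TIAR and -0.53 in HuR. The part of these shared shifts in the results was not tested.

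**Figure D5:**
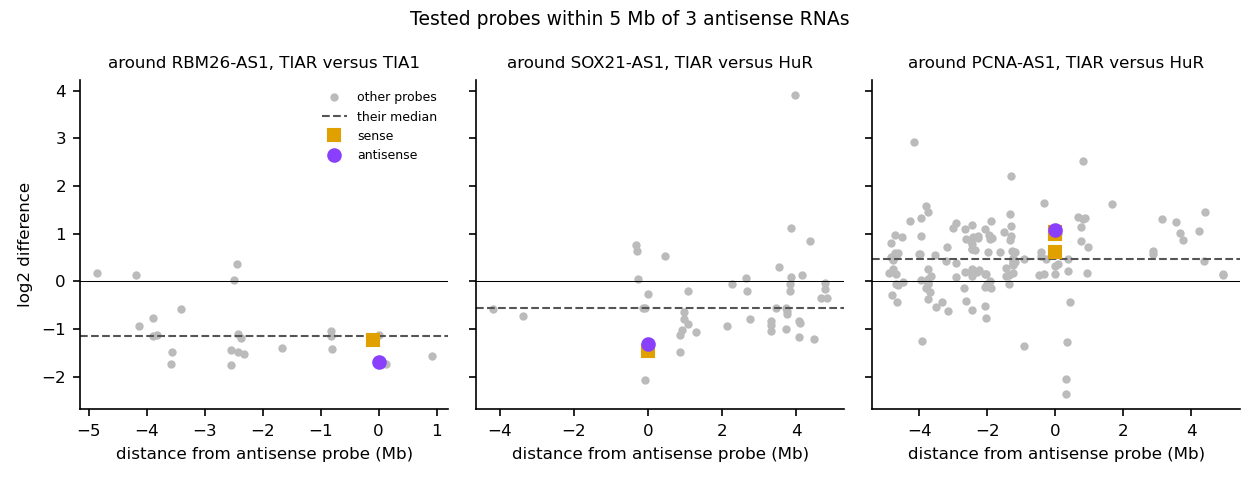
Log2 difference (y axis) of the tested probes within 5 Mb of 3 antisense probes (x axis, distance in Mb), with the median of the other probes dashed. The other probes have medians of -1.15 around RBM26-AS1 (TIAR relative to TIA1), -0.57 around SOX21-AS1 and 0.47 around PCNA-AS1 (both TIAR relative to HuR), on the same side of 0 as the antisense and sense probes.

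Other calls lay apart from their neighbourhood. ST7-AS1 was lower in TIA1 than in HuR by 1.18 on the log2 scale, while the 33 probes around it had a median of 0.42, and around BSN-AS2 the median between TIAR and TIA1 was -0.01 (224 probes). After the neighbours' median was subtracted, 18 of the 22 called probes in TIA1 and 14 of the 20 in TIAR still differed at least 2-fold from HuR, and 3 of the 4 between TIAR and TIA1. Those that no longer did include PCNA-AS1, IDI2-AS1 and MORC2-AS1 in TIA1, PCNA-AS1, SOX21-AS1, UBAC2-AS1, PCBP1-AS1, GCFC1-AS1 and TRAF3IP2-AS1 in TIAR, and RBM26-AS1 between TIAR and TIA1. The neighbours had the same sign as the called probe in 13, 14 and 3 cases.

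Relative to GFP, no antisense probe was called by limma, as no probe of the array was (0%). In TIA1, TIAR and HuR, 87, 89 and 90 antisense probes were tested, 32, 27 and 16 had an unadjusted p under 0.05, and the smallest adjusted p was 0.095, 0.14 and 0.16. The methods' paired t-test called no probe of the whole array in any of these comparisons after adjustment. With all 8 arrays in one fit, limma called 20, 11 and 4, which is 23%, 12.4% and 4.44% of the antisense probes tested. Of all tested probes, that fit called 9.05%, 5.95% and 3.95%. Calls appeared, among antisense probes and among all probes, when either GFP array was left out, so that each GFP array decided the count. Such a fit leaves 1 array in that line, and its counts are not given. The median difference of antisense probes from GFP was -0.25, -0.31 and -0.21, against 0.01, -0.02 and -0.04 over all probes, with antisense probes at higher signal on GFP 1 as given above. UBAC2-AS1, whose GFP arrays lay close together, was 5.06-fold lower in TIA1, 6.86-fold lower in TIAR and 2.95-fold lower in HuR than in GFP, with adjusted p-values of 0.095, 0.14 and 0.16. A probe of DNAJC3-AS1 read -0.90 and -0.77 in GFP, -2.17 and -2.16 in HuR, -2.04 and -2.27 in TIA1 and -2.81 and -2.82 in TIAR, so GFP was above every other array.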

How the data were processed

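RNA of the 4 lines was measured on 8 one-colour arrays, 2 per line, on day 3 of tetracycline. Per the file headers, the deposited processed signals are intensity values from the scanner software, background-subtracted array by array and not scaled across arrays. They also deposited a table of log2 values of the same arrays, used here as an alternative. Its normalization is not given in the sources used here, and its medians were 7.36 on the TIAR arrays and 7.41 to 7.51 elsewhere. Here the log2 signal was taken relative to each array's 75th percentile, after removing outlier spots, and repeated spots were averaged. Each comparison was fitted on its own 4 arrays with limma 3.58.1 (lmFit and eBayes) in R 4.3.3, with Benjamini-Hochberg adjustment over all tested probes. The code was tested on simulated data. A gene with several probes is represented by its tested probe of highest mean signal. Named are the 6 called antisense probes with the largest change in each direction, pairs called together and the often described antisense RNAs. Further calls, the medians within 5 Mb and the counts of arrays apart were chosen after their values were seen. The members, lists and tests were chosen with earlier results of these data known. Values of ASMTL-AS1, a called RNA of the pseudoautosomal region, are left out, and 1 further called RNA is not reported here. Alternatives were quantile normalization, normexp (offset 50), both, the deposited table, other filters on dim probes, all 8 arrays in one fit, the replicate number as a block, the methods' paired t-test and leaving out each array. The number of arrays limits the precision.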

Additional observations from a re-analysis of the deposited data

Results flagged for a closer look

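TIA1 and TIAR, both compared with HuR, gave effects that differed from each other by limma in 3 antisense RNAs and 2 sense genes, as the test between TIAR and TIA1 shows. MAGI2-AS3 was lower in TIAR on both called probes, at -1.74 (SE 0.11, adjusted p = 0.019) and -1.70 (SE 0.12, adjusted p = 0.019), each with both TIAR arrays below both TIA1 arrays. RBM26-AS1 was lower at -1.69 (SE 0.12, adjusted p = 0.019) and its sense gene RBM26 at -1.23 (SE 0.13, adjusted p = 0.033). BSN-AS2 differed by 1.39 (SE 0.17, adjusted p = 0.038), with TIA1 not well above background, so that it was at least 1.66-fold higher in TIAR. LSAMP, a sense gene, was higher at 1.39 (SE 0.12, adjusted p = 0.024). With the replicate number as a block or without the filter on dim probes, no probe of the whole array was called in this comparison. Without any 1 of the 4 arrays, the antisense and sense calls were lost, as were most or all calls over the whole array.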

How the results depend on the processing

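The counts of called antisense probes were 22 in TIA1 and 20 in TIAR relative to HuR (24.4% and 22%, against 13.4% and 10.1% of all probes). They were 4 in TIAR relative to TIA1 (4.76% against 2.33%) and 0 in each comparison with GFP, where no probe of the array was called. Relative to HuR, normexp gave 11 in TIA1 and 7 in TIAR (12.2% and 7.69%, against 7.67% and 5.49% of all probes). Normexp with quantile normalization gave 12 and 7 (13.3% and 7.69% against 5.94% and 4.08%). The authors' log2 values gave 12 and 8 (13.3% and 8.79% against 5.92% and 4.36%). All 8 arrays in one fit gave 13 and 11 (14.4% and 12.1% against 9.31% and 6.3%). Without a filter on dim probes, TIAR had 11 against HuR (6.55% against 4.76% of all probes). Against TIA1 that setting called no probe of the whole array. All 8 arrays in one fit left 2 between TIAR and TIA1 (2.38% against 1.24%). Against GFP, that fit gave 20, 11 and 4 for TIA1, TIAR and HuR, with the shares given above. The methods' paired t-test, after adjustment, called no probe of the whole array in any comparison. It rests on 2 arrays per line, whose replicate numbers did not pair the samples, so it cannot decide on the antisense RNAs. Leaving out 1 array gave 14 to 21 for TIA1 and 0 to 20 for TIAR relative to HuR (2 without HuR 1, 0 without HuR 2), 0 to 0 between TIAR and TIA1, and 0 to 38, 0 to 33 and 0 to 32 against GFP. Quantile normalization moved the split of higher to lower calls from 11 and 11 to 7 and 12 in TIA1, and from 10 and 10 to 5 and 12 in TIAR. With it, 21.1% and 18.7% of the antisense probes tested were called, against 11.8% and 8.6% of all probes. The cause of these changes was not tested. Of 40 called values of named genes, none changed sign under any of these alternatives, and 20 kept their call with normexp, 20 with the authors' values, 28 with all 8 arrays and 35 with quantile normalization. Replicate numbers did not pair the samples, since the correlations of same-numbered deviations lay between -0.0896 and 0.184. With the replicate number as a block, the counts relative to HuR were 22 in TIA1 and 20 in TIAR, where 13.5% and 10.1% of all probes were called. Between TIAR and TIA1 and against GFP, the fit with the block called no probe of the array. Dim probes limit the rest, since 71 of 168 antisense probes were well above background on all arrays.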
